A study of Homo sapiens with 6 samples.

Results

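The p53 target genes described here are 33 genes that the transcription factor p53 is known to switch on, taken by name from a list of known targets. They were sought by symbol in the deposited expression table of 28563 genes, where 31 of the 33 had a row, and 30 of these averaged 0.5 FPKM or more across the 6 libraries and were tested. EDA2R and SPATA18 were not analysed here, and TP53INP1 was listed at 0 to 4 fragments in a library and was too low to test. FPKM is the number of fragments counted on a gene per kilobase of its length, scaled to the depth of the library. It does not correct for differences in the make-up of the libraries, and the fit was also run on rescaled values. Cells labelled HepG2, an established line that grew from a human liver cancer, were given polydatin (PD), a glucoside of resveratrol found in plants, at 336 µM for 24 h, or DMSO as the control. Each group consisted of 3 dishes with 1 poly(A) library per dish. All dishes carried the same line in 1 experiment, so the p-values below measure the spread between dishes. The paper states a slightly lower dose than the labels do. Libraries held 16308476 to 18071632 fragments, and the tested p53 targets had between 122 and 6245 fragments each in a library. Of 20 genes typical of hepatocytes, 11 had a row and 2 of them, CPS1 and RBP4, reached 1 FPKM in any library, while APOA1, SERPINA1, FGA, FGG, TF and HNF4A had at most 13 fragments in a library. ALB and AFP were among the 9 not analysed here. The urea cycle gene CPS1 had 222, 228 and 225 FPKM in DMSO and 111, 108 and 106 FPKM in PD, and the retinol carrier gene RBP4 had at most 1.73 FPKM. The label HepG2 was thus not borne out by its defining liver genes and is used only as the name of the samples. The state of the p53 protein in these cells was not measured.

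p53 is a transcription factor that cells keep at a low level through MDM2, the ubiquitin ligase that marks it for destruction, and that builds up after DNA damage or other stress. It binds DNA at sites near its targets and raises genes that stop the cell cycle, trigger apoptosis, repair DNA and adjust metabolism, along with MDM2 itself and other genes that turn p53 off again. Several of these targets also respond to other factors, among them ATF4 and CHOP in the integrated stress response, so a change in one target is not a measure of p53.

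A p53 site is a pair of 10-base units, each made of 3 purines, a C, a pair of bases that are A or T, a G and 3 pyrimidines. Such pairs were sought in hg38 within 3000 bases of the RefSeq gene start (assembly GRCh38.p14), with a spacer of at most 1 base, the C and G of each unit intact and at most 2 other letters off the pattern. The pattern reads alike on both strands. Of 26 members with a RefSeq promoter entry, 14 (53.8%) held at least 1 match, compared with 2600 of 27305 genes (9.5%) searched in the same way, and with 12 of 38 other p53 targets (31.6%). The members are on the list as known targets, so this share describes the list and says nothing of PD. GADD45A, TNFRSF10B, TP53INP1, PHLDA3, CMBL, RRM2B and FBXO22 had no promoter entry. The sites of 4 members that rose in PD, 4 that fell and 1 that was not called are shown because they carry the contrast described below. Sequences run 5′ to 3′ on the strand of the gene, capitals mark the site and lower case marks 4 flanking bases on each side or a spacer. Coordinates are those of the site.
CDKN1A, higher in PD, chr6:36676449-36676468, plus strand: tcagGAACATGTCCCAACATGTTGagct
BAX, higher in PD, chr19:48955213-48955232, plus strand: ccccGGGCAGGCCCGGGCTTGTCGcccg
GDF15, higher in PD, chr19:18385308-18385327, plus strand: ttgcCATCTTGCCCAGACTTGTCTcgaa
CCNG1, higher in PD, chr5:163437926-163437945, plus strand: gtgaGCACAAGCCCAGGCTAGTCCgagg
ZMAT3, not called, chr3:179070188-179070207, minus strand: cataAAACAAGTCCAGACATGCCTaggc
PLK2, lower in PD, chr5:58462274-58462293, minus strand: tgagAAACATGCCTGGACTTGCCCtgca
DDB2, lower in PD, chr11:47214979-47214999, plus strand: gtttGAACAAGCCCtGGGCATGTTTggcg
MDM2, lower in PD, chr12:68808923-68808942, plus strand: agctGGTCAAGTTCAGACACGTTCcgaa
FAS, lower in PD, chr10:88991309-88991328, plus strand: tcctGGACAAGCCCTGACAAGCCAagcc

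By GENCODE release 44, the site of PLK2 lay outside the gene, upstream of its start. Those of ZMAT3, MDM2, CCNG1 and GDF15 lay in introns, those of BAX, DDB2 and FAS in exons, and that of CDKN1A overlapped the edge of an annotated exon upstream of the RefSeq start. The members with no letter off the pattern were PLK2, ZMAT3 and DDB2 (the last with a spacer of 1 base), and none of the 3 was higher in PD. Of the 12 tested members with a match, 6 were higher, 4 were lower and 2 were not called, while of the 12 tested members searched without a match 9 were higher, 1 was lower and 2 were not called. Over all tested genes 31.9% were higher and 26.2% were lower. These counts of members are small and were not tested against each other. A match says that the letters are present, and no binding of p53 was measured.

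**Figure D1:**
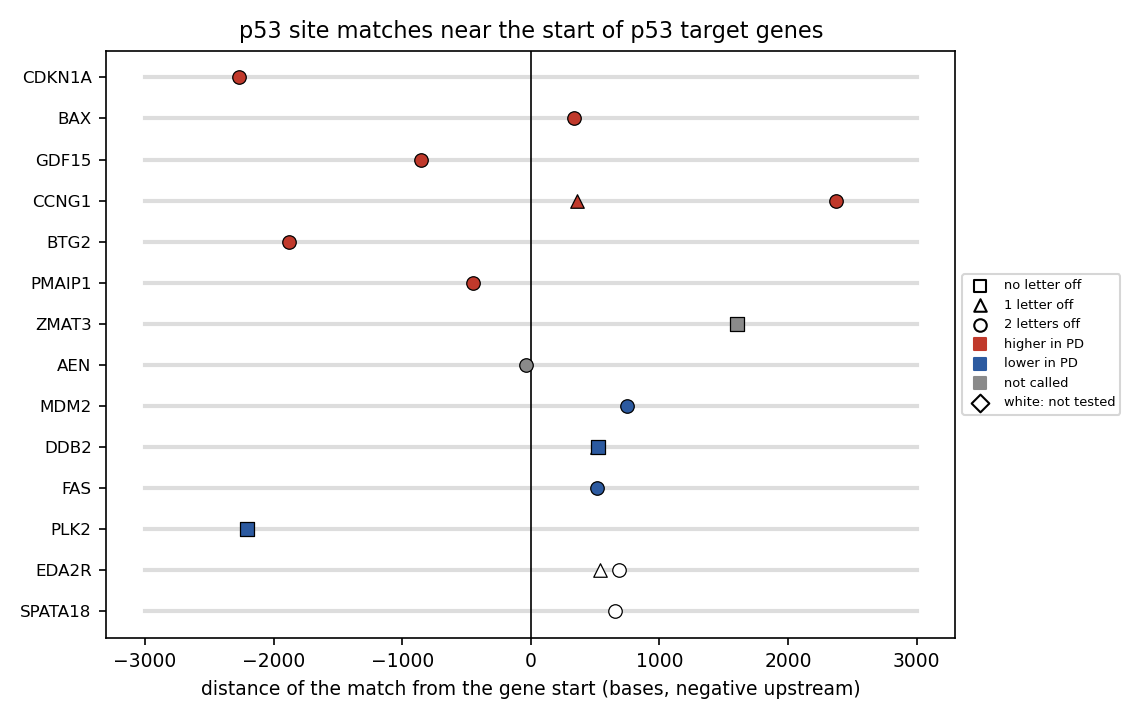
Distance in bases from the RefSeq gene start to each p53 site match (horizontal axis, negative upstream) for the 14 p53 target genes that held one, ordered from the largest rise in PD to the largest fall, with the 2 genes without expression values here (EDA2R and SPATA18) last. Marker shape gives the number of letters off the pattern and colour the call in PD against DMSO. The 3 genes with a match that has no letter off (squares: ZMAT3, DDB2 and PLK2) are not among those higher in PD. Over all tested genes 31.9% were higher. A second DDB2 match, 1 letter off, overlaps the first.

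Differential expression was tested by limma on log2(FPKM + 1), with p-values adjusted by the Benjamini-Hochberg method over the 14400 genes that averaged 0.5 FPKM or more, and a gene was called at an adjusted p of at most 0.05. Among the 30 tested p53 targets 19 were higher in PD (63.3%), 5 were lower (16.7%) and 6 were not called, where 31.9% of all tested genes were higher and 26.2% were lower. The median log2 fold change of the members was 0.23, compared with 0.012 over all tested genes. Most changes were small. The 2-fold threshold of the study was then added, but on log2(FPKM + 1), whereas the study used DESeq2. By this measure 3 members were upregulated DEGs (CDKN1A, TP53I3 and FDXR) and none was a downregulated DEG. Of all tested genes 2.04% were upregulated and 1.57% were downregulated DEGs. The values of the 3 PD and 3 DMSO libraries did not overlap in 24 of the 30 members, as was the case in 65.4% of all tested genes. All fold changes were computed from log2(FPKM + 1), so those of genes with low FPKM are understated. In bulk RNA, fewer cells that express a gene and less of its RNA per cell cannot be told apart.

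**Figure D2:**
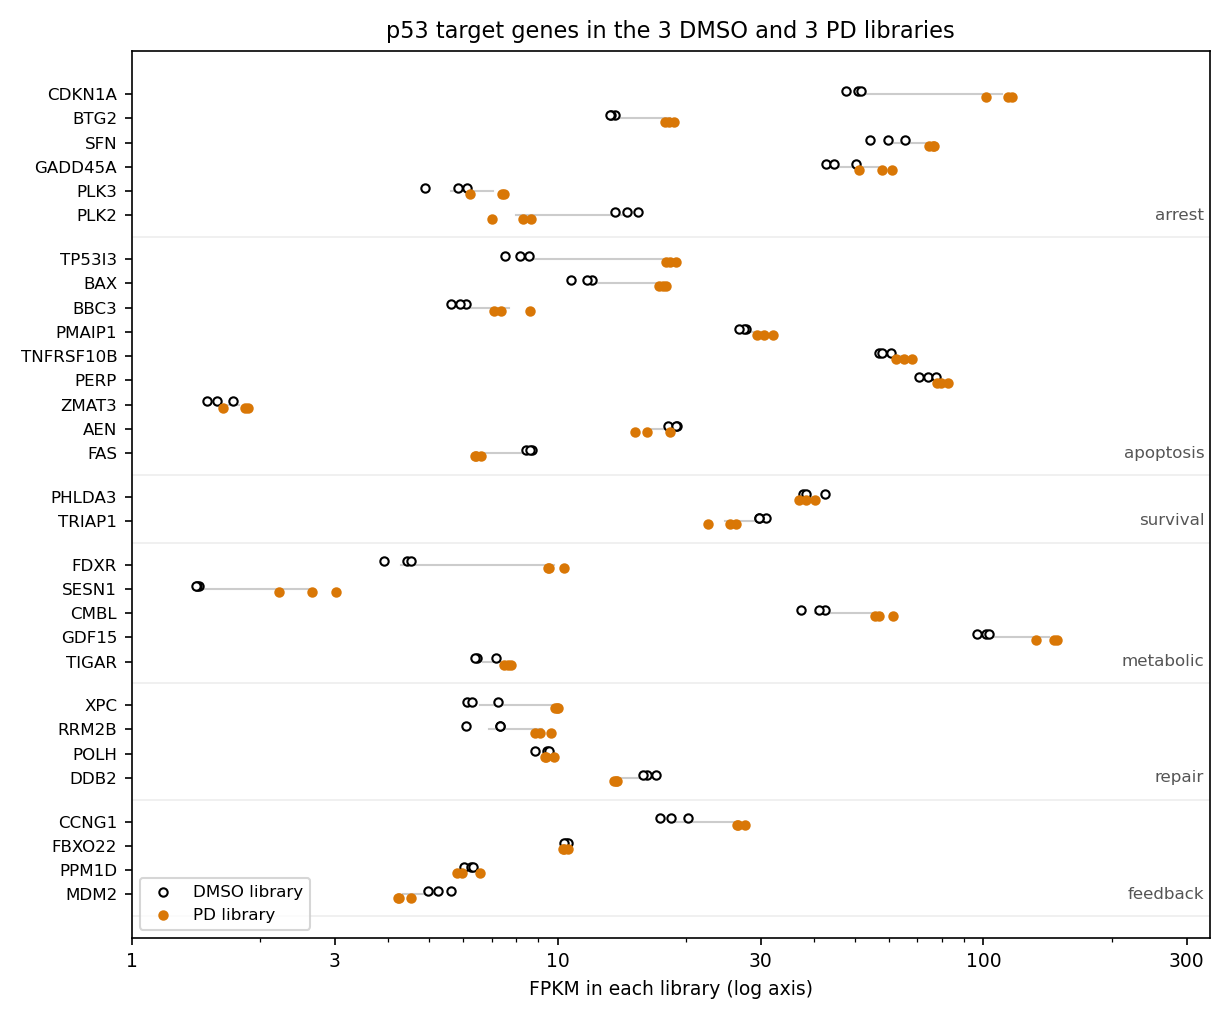
FPKM (log axis) of the 30 tested p53 target genes in each of 3 DMSO libraries (open circles) and 3 PD libraries (filled circles), grouped by role and ordered within a role by the change in PD; the grey line joins the group means. CDKN1A, TP53I3 and FDXR are the genes whose groups lie more than 2-fold apart on the FPKM + 1 scale, and PLK2 is the gene with the widest gap in the opposite direction.

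The 6 genes of cell cycle arrest were all called, with 5 higher (background 31.9%) and 1 lower (background 26.2%) in PD. CDKN1A encodes p21, the inhibitor of cyclin-dependent kinases through which p53 halts the cell cycle, and occupies bases 36676460 to 36687337 of chromosome 6 (GRCh38). CDKN1A had 50.8, 51.7 and 47.7 FPKM in DMSO and 101, 117 and 114 FPKM in PD. Every PD library exceeded every DMSO library, the ratio of the means was 2.21, and the log2 fold change of CDKN1A was 1.13 ± 0.060 (SE) with an adjusted p of 8.5e-06 (limma). CDKN1A shares 4.9% of its exon length with DINOL, an RNA on the opposite strand. The next largest rise of this group was that of BTG2, an antiproliferative gene, with 13.7, 13.4 and 13.3 FPKM in DMSO and 17.9, 18.3 and 18.8 FPKM in PD. The groups of BTG2 were tight and far apart, and its log2 fold change was 0.42 ± 0.037 (SE, adjusted p = 7e-05, limma). SFN, which encodes 14-3-3 sigma and holds cells before mitosis, had 54.2, 59.6 and 65.5 FPKM in DMSO and 76.1, 76.5 and 74.7 FPKM in PD. The PD libraries of SFN all stood above a more variable DMSO group, by 0.34 ± 0.063 on the log2 scale (SE, adjusted p = 0.0027, limma). GADD45A, a gene of growth arrest and DNA damage, had 50.1, 42.6 and 44.7 FPKM in DMSO and 50.9, 60.9 and 57.7 FPKM in PD. Its lowest PD library and highest DMSO library nearly met, and the change of 0.30 on the log2 scale (adjusted p = 0.015, limma) was no longer called without PD replicate 2 (adjusted p = 0.052), and was just over the threshold of 0.05 without PD replicate 3 and without the filter on FPKM.

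The polo-like kinases PLK2 and PLK3, both stress-responsive relatives of PLK1, went opposite ways. PLK2 had 15.5, 14.6 and 13.6 FPKM in DMSO and 7.0, 8.32 and 8.67 FPKM in PD. All PD libraries of PLK2 stood well below all DMSO libraries, and its log2 fold change of -0.79 ± 0.081 (SE, adjusted p = 0.00014, limma) was the largest fall among the 30 tested members. PLK3 had 5.84, 4.89 and 6.13 FPKM in DMSO and 6.22, 7.41 and 7.49 FPKM in PD. The groups of PLK3 were separated by a narrow margin, and its log2 fold change of 0.28 (adjusted p = 0.035, limma) was called in 5 of 12 alternative settings, with adjusted p of up to 0.11. PLK3 shares 2.9% of its exon length with DYNLT4 on the opposite strand.

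Of 11 members that act in apoptosis, 9 were tested. Of these 6 were higher (66.7%, background 31.9%), 1 was lower (11.1%, background 26.2%) and 2 were not called. The largest rise was that of TP53I3, a quinone oxidoreductase also known as PIG3, which lies on chromosome 2 from 24077433 to 24085861. TP53I3 had 8.56, 7.53 and 8.14 FPKM in DMSO and 18.0, 18.4 and 19.0 FPKM in PD. The libraries of each group were close together and the groups far apart, with a log2 fold change of 1.10 ± 0.052 (SE, adjusted p = 6.1e-06, limma). The mitochondrial arm of apoptosis is represented by BAX, which opens the outer membrane, and by BBC3 (PUMA) and PMAIP1 (NOXA), which act upstream of it. BAX had 12.0, 10.7 and 11.7 FPKM in DMSO and 17.3, 18.0 and 17.6 FPKM in PD, with no overlap and a log2 fold change of 0.58 ± 0.049 (SE, adjusted p = 6.2e-05, limma). BBC3 had 6.10, 5.63 and 5.90 FPKM in DMSO and 7.36, 7.10 and 8.62 FPKM in PD. PD replicate 3 was the highest library of BBC3, and the change of 0.34 (adjusted p = 0.0057, limma) was called with and without it. PMAIP1 had 27.7, 27.5 and 26.7 FPKM in DMSO and 32.1, 29.3 and 30.5 FPKM in PD, a small rise of 0.16 on the log2 scale (adjusted p = 0.012, limma).

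The death receptors FAS and TNFRSF10B (DR5) differed in direction. FAS, the receptor of the FAS ligand, had 8.44, 8.72 and 8.62 FPKM in DMSO and 6.40, 6.44 and 6.61 FPKM in PD. The groups of FAS were tight and did not overlap, and its log2 fold change was -0.36 ± 0.041 (SE, adjusted p = 0.00025, limma). Exons of FAS overlap other genes on both strands, the largest shared part being 6.5% of its exon length. TNFRSF10B, a receptor of the ligand TRAIL, had 56.9, 60.6 and 57.8 FPKM in DMSO and 62.5, 65.0 and 68.1 FPKM in PD. Its rise of 0.15 on the log2 scale (adjusted p = 0.015, limma) was not called in 4 of 12 alternative settings, including median-of-ratios scaling (adjusted p = 0.052) and upper quartile scaling (adjusted p = 0.058). PERP, a membrane protein of cell junctions, had 74.2, 77.3 and 70.5 FPKM in DMSO and 77.9, 82.6 and 79.7 FPKM in PD. PERP stood at the threshold, with a log2 fold change of 0.11 and an adjusted p of 0.05 (limma), and kept its call in 3 of 12 alternative settings. AEN, a nuclease that degrades DNA in apoptosis, had 18.2, 19.1 and 18.9 FPKM in DMSO and 15.2, 16.3 and 18.4 FPKM in PD. The groups of AEN overlapped through PD replicate 3, and its log2 fold change was -0.17 (95% interval -0.32 to -0.012, adjusted p = 0.063, limma); without PD replicate 3 it was -0.24 with an adjusted p of 0.0083. AEN was called lower in 5 of 12 alternative settings, the others being the replicate block (adjusted p = 0.047), median-of-ratios scaling (0.036), upper quartile scaling (0.027) and voom (0.018). ZMAT3, an RNA-binding protein, had 1.58, 1.73 and 1.50 FPKM in DMSO and 1.84, 1.64 and 1.88 FPKM in PD, with overlapping groups and a log2 fold change of 0.096 (95% interval -0.081 to 0.27, adjusted p = 0.31, limma).

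The group labelled survival held TRIAP1 and PHLDA3, which act on survival in opposite ways. Of these 1 was lower (background 26.2%) and 1 was not called. TRIAP1, a small mitochondrial protein that restrains caspase activation, had 30.9, 29.8 and 29.7 FPKM in DMSO and 26.2, 25.4 and 22.5 FPKM in PD. All PD libraries of TRIAP1 were lower, with a log2 fold change of -0.28 ± 0.057 (SE, adjusted p = 0.0044, limma). PHLDA3, which inhibits the survival kinase AKT, had 37.7, 38.3 and 42.4 FPKM in DMSO and 38.4, 36.8 and 40.2 FPKM in PD. Its groups overlapped and the log2 fold change was -0.036 (95% interval -0.16 to 0.091, adjusted p = 0.6, limma), and 18.4% of its exon length is shared with another gene on the same strand.

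All 5 tested members of the metabolic group, out of 6 listed, were higher in PD (background 31.9%). Their median log2 fold change of 0.51 was the highest of the 6 role groups. Roles were assigned with earlier results of these data known, so this order only describes the groups. FDXR, the mitochondrial reductase that passes electrons to ferredoxin for steroid and iron-sulfur cluster synthesis, lies on chromosome 17 from 74862497 to 74873031. FDXR had 4.42, 3.91 and 4.52 FPKM in DMSO and 9.53, 9.48 and 10.4 FPKM in PD. The groups of FDXR were about 2.29-fold apart in mean FPKM, and the log2 fold change was 1.03 ± 0.063 (SE, adjusted p = 1.5e-05, limma). Since this change was close to the 2-fold threshold, FDXR was not a DEG without DMSO replicate 2, without PD replicate 3 (0.98 was the lowest value over the left-out libraries) or with upper quartile scaling, although its adjusted p stayed at or below 0.00021. SESN1, a sestrin that restrains mTORC1, had 1.44, 1.42 and 1.42 FPKM in DMSO and 2.22, 2.65 and 3.02 FPKM in PD. The DMSO libraries of SESN1 were nearly equal while the PD libraries were spread, and its log2 fold change of 0.58 ± 0.092 (SE, adjusted p = 0.0013, limma) came from 122 to 252 fragments a library. With voom on fragments, which adds no pseudocount of 1 FPKM, SESN1 rose by 0.86 on the log2 scale. GDF15, a secreted stress cytokine, was the most abundant member, with 101, 96.8 and 103 FPKM in DMSO and 133, 149 and 147 FPKM in PD. Each PD library of GDF15 exceeded each DMSO library, by 0.50 ± 0.049 on the log2 scale (SE, adjusted p = 0.00011, limma). CMBL, a hydrolase of the cytosol, had 42.5, 41.2 and 37.2 FPKM in DMSO and 56.8, 61.3 and 55.7 FPKM in PD, with no overlap and a log2 fold change of 0.51 (adjusted p = 0.00025, limma). TIGAR, a phosphatase that lowers glycolysis, had 6.46, 7.16 and 6.40 FPKM in DMSO and 7.49, 7.78 and 7.65 FPKM in PD. The rise of TIGAR was small at 0.17 (adjusted p = 0.025, limma), it was called in 6 of 12 alternative settings, and 18.1% of its exon length is shared with another gene on the same strand.

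The 4 DNA repair members comprised 2 that were higher (background 31.9%), 1 that was lower (background 26.2%) and 1 that was not called. XPC and DDB2 both recognise damage in nucleotide excision repair, and they moved in opposite directions. XPC had 7.26, 6.14 and 6.31 FPKM in DMSO and 10.0, 9.99 and 9.85 FPKM in PD, with a log2 fold change of 0.54 ± 0.062 (SE, adjusted p = 0.00027, limma). All PD libraries of XPC were above all DMSO libraries, but 24.6% of its exon length overlaps the antisense RNA XPC-AS1, whose reads cannot be told apart because the sources do not say whether counting used strand. DDB2 had 16.2, 17.1 and 15.8 FPKM in DMSO and 13.5, 13.7 and 13.8 FPKM in PD. The PD libraries of DDB2 lay within a narrow range below DMSO, with a log2 fold change of -0.24 ± 0.040 (SE, adjusted p = 0.0016, limma). RRM2B, the p53-inducible subunit of ribonucleotide reductase, had 7.33, 7.33 and 6.09 FPKM in DMSO and 9.65, 8.86 and 9.10 FPKM in PD, higher in every PD library by 0.37 on the log2 scale (adjusted p = 0.0039, limma). POLH, a polymerase that copies past damaged bases, had 8.86, 9.42 and 9.53 FPKM in DMSO and 9.82, 9.36 and 9.41 FPKM in PD. Its groups overlapped, and the 95% interval of the log2 fold change was -0.070 to 0.14 (adjusted p = 0.52, limma).

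Of the 4 feedback members 1 was higher (background 31.9%), 1 was lower (background 26.2%) and 2 were not called. Their median log2 fold change was -0.012, close to the 0.012 over all tested genes. MDM2, the main inhibitor of p53 and one of its best known targets, lies on chromosome 12 from 68808177 to 68845544. MDM2 had 5.25, 5.61 and 4.97 FPKM in DMSO and 4.52, 4.24 and 4.21 FPKM in PD. Every PD library of MDM2 was below every DMSO library, so that MDM2 fell where CDKN1A rose, with a log2 fold change of -0.24 ± 0.058 (SE, 95% interval -0.37 to -0.10, adjusted p = 0.01, limma). Exons of MDM2 overlap 3 other annotated genes, by at most 9.5% of its exon length. CCNG1, cyclin G1, which brings a phosphatase to MDM2, had 18.4, 20.2 and 17.4 FPKM in DMSO and 26.4, 26.6 and 27.5 FPKM in PD. The rise of CCNG1 was 0.50 ± 0.055 on the log2 scale (SE, adjusted p = 0.0002, limma). PPM1D (WIP1), the phosphatase that switches off p53 and its kinases, had 6.04, 6.24 and 6.33 FPKM in DMSO and 6.58, 5.81 and 5.97 FPKM in PD. FBXO22, a ubiquitin ligase subunit that acts on p53, had 10.5, 10.6 and 10.3 FPKM in DMSO and 10.6, 10.4 and 10.3 FPKM in PD. Both had overlapping groups, with 95% intervals of the log2 fold change of -0.15 to 0.11 for PPM1D and -0.093 to 0.083 for FBXO22, so changes beyond these bounds were not seen at this depth. FBXO22 shares 16.2% of its exon length with NRG4 on the opposite strand.

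**Figure D3:**
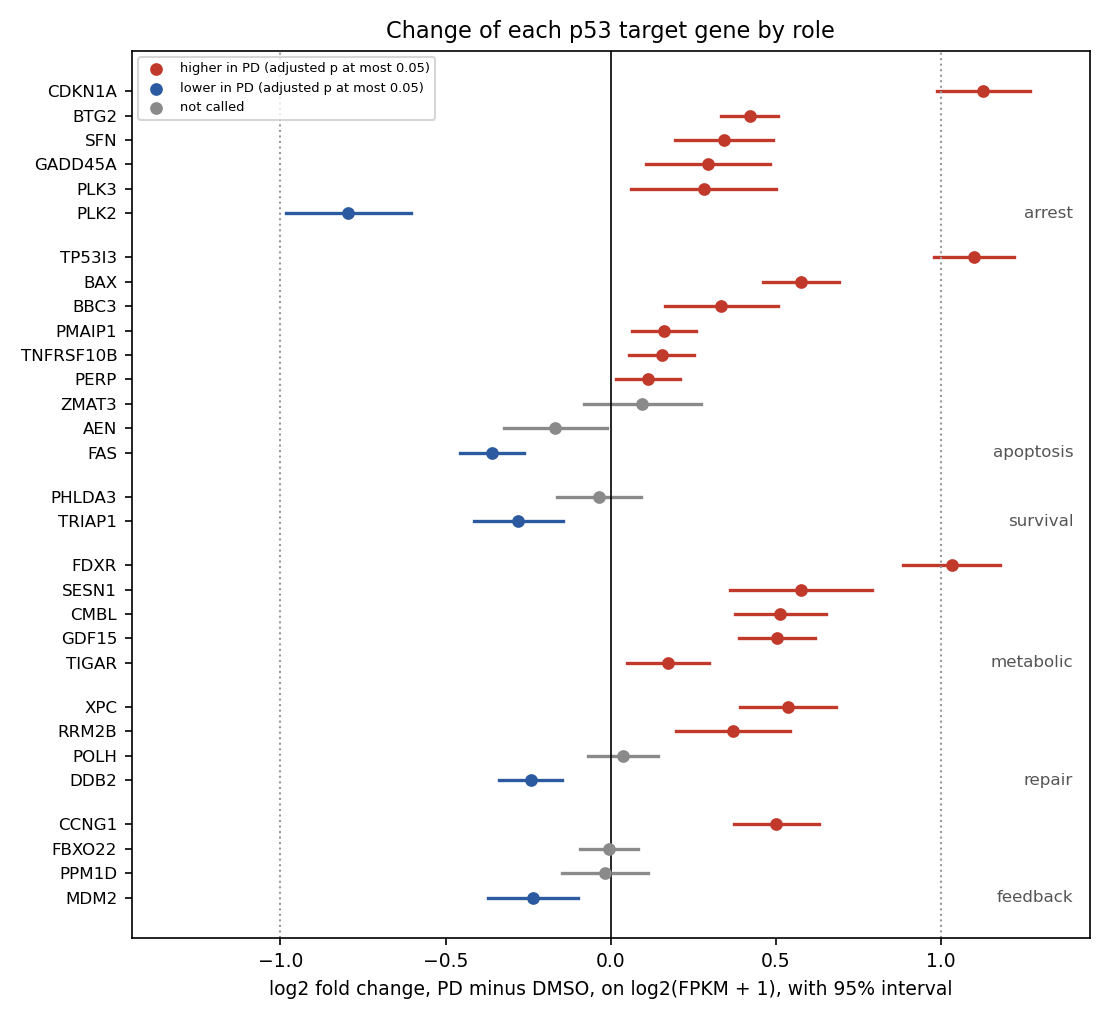
Log2 fold change of PD against DMSO on log2(FPKM + 1) (horizontal axis) for the 30 tested p53 target genes by role, with points for the estimate and lines for the 95% interval from limma (n = 3 libraries per group). Dotted lines mark a 2-fold change; CDKN1A, TP53I3 and FDXR lie beyond it, all 5 metabolic genes lie to the right of 0, and the genes called lower (MDM2, DDB2, FAS, TRIAP1 and PLK2) lie to the left, as do the estimates of AEN, PHLDA3, PPM1D and FBXO22, which were not called.

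The calls did not rest on 1 setting for most members. Of the 24 called members, 19 were called in the same direction in all 12 alternative settings, 14 of them higher and 5 lower. GADD45A, PLK3, TNFRSF10B, PERP and TIGAR lost their call in at least 1 setting, and each of these rose by at most 0.30 on the log2 scale. PLK2, FAS, TRIAP1, DDB2 and MDM2 were the 5 lower members, and all kept their direction and call. The arrest group had a median log2 fold change of 0.32, the apoptosis group 0.155 and the repair group 0.20. The medians were 0.51 for metabolic genes, -0.012 for feedback genes and -0.16 for the pair TRIAP1 and PHLDA3. TRIAP1 and PHLDA3 act on survival in opposite ways, so the median of the pair gives no direction for survival. No test was made between these groups, which hold 2 to 9 tested genes each.

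Some members are also known to be raised by ATF4 and CHOP. All 5 of these (GDF15, TNFRSF10B, BBC3, PMAIP1 and GADD45A) were higher in PD, with log2 fold changes from 0.15 to 0.50. The other 25 tested members had 14 higher and 5 lower, and included all 3 DEGs and all 5 that fell. Of 11 genes of the ATF4 and CHOP response that are not members, 5 were higher (45.5%), 1 was lower (9.1%) and 5 were not called. For all counts in this paragraph, the background was 31.9% higher and 26.2% lower over all tested genes. DDIT3, which encodes CHOP, had 15.5, 10.6 and 12.7 FPKM in DMSO and 24.4, 29.9 and 30.4 FPKM in PD and was a DEG with a log2 fold change of 1.08 (adjusted p = 0.0004, limma), though 27.2% of its exon length overlaps MARS1 on the opposite strand. ASNS (0.81) and CHAC1 (0.74) rose as well, CEBPB fell by 0.37 on the log2 scale, and ATF4 itself had 182 to 193 FPKM in the 6 libraries with an adjusted p of 0.45 (limma). About 49.3% of the exon length of ASNS is shared with another gene on the same strand. The part of this response in the values of the members was not tested. Of the 3 members also known as immediate early genes, BTG2 and PLK3 were higher and PLK2 was lower.

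The relatives of p53 and the genes that act on it were examined next. Of the relatives, TP73 rose from 0.736, 0.706 and 0.812 to 1.28, 1.27 and 1.22 FPKM, a log2 fold change of 0.37 (adjusted p = 0.0055, limma), and TP63 had at most 0.22 FPKM and was not tested. Of the 20 tested relatives and regulators 5 were higher (background 31.9%), 10 were lower (background 26.2%) and 5 were not called. Their median log2 fold change was -0.18, opposite in sign to that of the targets. The list holds genes that restrain p53, such as MDM4, beside kinases and acetyltransferases that modify it. The median therefore gives no direction for p53.

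The next group held kinases and acetyltransferases that modify p53, together with the p53-binding protein TP53BP1. Of these 10 genes 1 was higher, 5 were lower and 4 were not called, beside the same background. PRKDC, the catalytic subunit of DNA-dependent protein kinase, had 88.5, 90.2 and 87.8 FPKM in DMSO and 66.5, 62.6 and 63.8 FPKM in PD. The groups of PRKDC were well separated, with a log2 fold change of -0.46 ± 0.032 (SE, adjusted p = 2.6e-05, limma). The acetyltransferases CREBBP (-0.40), EP300 (-0.35) and KAT5 (-0.25) and the kinase HIPK2 (-0.33) were lower as well on the log2 scale, with adjusted p from 0.00023 to 0.0028 (limma), although 38.6% of the exon length of KAT5 overlaps RNASEH2C on the opposite strand. The damage kinase ATM was higher by 0.17 (adjusted p = 0.04, limma), a call that was lost in 9 of 12 alternative settings. ATR had a log2 fold change of -0.15 (adjusted p = 0.06, limma), TP53BP1 of -0.092 with 28.8% of its exon length on the opposite strand of TUBGCP4, CHEK1 of 0.042 and CHEK2 of -0.0048, none of them called.

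In the group of ubiquitin ligases and factors that act through MDM2, 3 of 9 were higher, 5 were lower and 1 was not called, again beside 31.9% and 26.2% of all tested genes. MDM4, the partner of MDM2 that blocks p53, had 6.88, 7.14 and 6.51 FPKM in DMSO and 5.17, 4.62 and 4.43 FPKM in PD. Every PD library of MDM4 was below every DMSO library, with a log2 fold change of -0.45 ± 0.064 (SE, adjusted p = 0.00072, limma). RCHY1, another ligase of p53, was lower by 0.38 on the log2 scale (adjusted p = 0.0055, limma), and USP7, which removes ubiquitin from MDM2 and p53, by 0.26 (adjusted p = 0.00085, limma). The locus CDKN2A, which encodes p16 and the MDM2 inhibitor ARF, was expressed at 69.6, 69.0 and 72.9 FPKM in DMSO and 59.9, 62.4 and 59.4 FPKM in PD (log2 fold change -0.22, adjusted p = 0.0014, limma). Gene-level values do not tell its products apart, and 15.3% of its exon length overlaps CDKN2B-AS1 on the opposite strand. RPL5, a ribosomal protein that can bind MDM2, was lower (-0.25, adjusted p = 0.00011, limma), while RPL11 had a log2 fold change of -0.055 and was not called. PML (0.24), DAXX (0.19) and COP1 (0.14) were higher with adjusted p from 0.019 to 0.039 (limma), and each of these calls was lost in several alternatives.

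A wider list of 46 other known p53 targets was examined beside the members. Of its 38 tested genes 23 were higher (60.5%, background 31.9%), 8 were lower (21.1%, background 26.2%) and 7 were not called. The median log2 fold change was 0.26, compared with 0.012 over all tested genes. The largest rises were those of SERTAD1, a cofactor of cyclin-dependent kinase 4 and E2F (2.63, 2.68 and 2.74 FPKM in DMSO, 10.9, 10.0 and 10.8 FPKM in PD), ORAI3, a calcium channel (0.898, 1.17 and 1.28 FPKM in DMSO, 3.27, 3.48 and 3.50 FPKM in PD), and ACER2, a ceramidase (0.362, 0.240 and 0.235 FPKM in DMSO, 1.51, 1.48 and 0.931 FPKM in PD). Their log2 fold changes on log2(FPKM + 1) were 1.65, 1.06 and 0.84, and the first and second were DEGs. This order rests on the added 1 FPKM. By the ratio of mean FPKM, ACER2 (4.68) was above SERTAD1 (3.94) and ORAI3 (3.05). About 52.9% of the exon length of ORAI3 is shared with another gene on the same strand, so its value is uncertain, and ACER2 rested on 9 to 61 fragments a library. On the log2(FPKM + 1) scale the largest falls were those of PRDM1, a transcriptional repressor (2.36, 2.63 and 2.27 FPKM in DMSO, 0.643, 0.475 and 0.501 FPKM in PD), DRAM1, a lysosomal protein of autophagy (25.4, 26.7 and 23.7 FPKM in DMSO, 17.1, 16.2 and 17.2 FPKM in PD), and PTP4A1, a phosphatase (159, 167 and 152 FPKM in DMSO, 119, 121 and 112 FPKM in PD). Their log2 fold changes were -1.15, -0.56 and -0.44, and PRDM1 was a DEG, while 78.1% of the exon length of PTP4A1 is shared with another gene on the same strand. By the ratio of mean FPKM, THBS1 (0.733) and LIF (0.734) were slightly below PTP4A1 (0.737).

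p21 is known to act back on transcription through the DREAM complex, which represses genes of the cell cycle. Of 20 such genes 14 were lower (background 26.2%), 3 were higher and 3 were not called, and the median log2 fold change was -0.52. On the log2(FPKM + 1) scale the largest falls were those of the mitotic kinases PLK1 (27.6, 26.9 and 27.3 FPKM in DMSO, 8.64, 9.08 and 9.29 FPKM in PD) and AURKA (48.3, 54.6 and 52.6 FPKM in DMSO, 20.5, 19.3 and 19.4 FPKM in PD) and of the topoisomerase TOP2A (104, 101 and 99.6 FPKM in DMSO, 54.1, 46.4 and 45.9 FPKM in PD). Their log2 fold changes were -1.50, -1.35 and -1.04, with adjusted p of at most 1.4e-05 (limma), and CCNB1 was the fourth DEG of this list at -1.03. This order rests on the added 1 FPKM. CENPE, a mitotic kinesin named here after its values were seen, had a PD to DMSO ratio of mean FPKM of 0.456. That ratio was below the 0.481 of TOP2A and 0.482 of CCNB1, but the log2 fold change of CENPE was -0.90 and it was not a DEG here. The paper, by DESeq2, counts CENPE among its downregulated DEGs and also reports its fall by RT-qPCR. The genes that rose were MYBL2 (0.82), which joins the complex that replaces DREAM, AURKB (0.32) and CDC25A (0.22). FOXM1 (-0.051), CDC25C (-0.070) and MAD2L1 (-0.14) were not called. These genes respond to many inputs, and their dependence on CDKN1A was not tested.

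**Figure D4:**
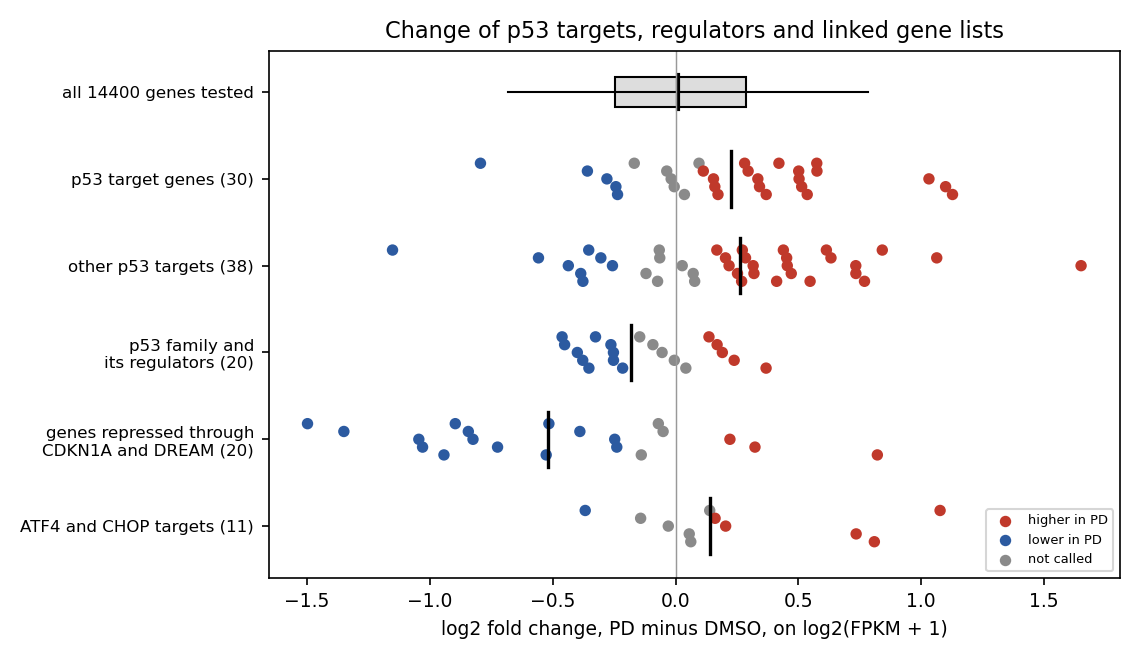
Log2 fold change of PD against DMSO on log2(FPKM + 1) (horizontal axis) for each tested gene of 5 lists, with the number of genes in brackets, points coloured by call and a vertical line at each median. The top row shows all 14400 tested genes as the median (line), the 25th to 75th percentile (box) and the 5th to 95th percentile (whisker, from -0.68 to 0.78). The medians of the p53 target lists lie to the right of 0, and those of the p53 regulators and of the DREAM-repressed genes to the left.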

How the data were processed

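Libraries from poly(A)-selected RNA were sequenced as paired reads, and per the labels they were aligned with HISAT2 to hg38 and counted with HTSeq 0.6.0. The authors deposited FPKM per gene, and the table as given holds no gene at 0 in all libraries. The annotation release and the strand setting were not given in the sources used here, so genes with shared exons (GENCODE release 44) are uncertain. Symbols were matched by Ensembl identifier for 28161 of 28563 genes. Genes that averaged 0.5 FPKM or more were tested with limma 3.58.1 (R 4.3.3) on log2(FPKM + 1), with lmFit, eBayes and a mean-variance trend, and Benjamini-Hochberg adjustment; a DEG also changed at least 2-fold. The fit was also run on simulated data with changes of more than 2-fold, scored as DEGs. That run does not bear on the smaller changes of most members. Whole fragments worked back from FPKM (tolerance 0.001) gave depth and the voom alternative (at least 10 fragments in at least 3 libraries), and depth limits precision through counting error only. All p53 targets and regulators were named, except 1 gene of the regulator list that is not reported here and was left out of its counts; other lists were given by counts and the 3 largest called changes each way. Members, roles and lists were chosen with earlier results of these data known.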

Additional observations from a re-analysis of the deposited data

How the results depend on the processing

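The number of DEGs over all genes was 520, and it moved to 1248 with a pseudocount of 0.1 and to 1811 with voom on fragments, which also tested 15314 genes under another filter and with weights; the cause was not tested. It was 497 to 518 under the other settings and 511 to 561 when each library was left out. The count of p53 targets called lay between 20 and 25 in all 12 alternatives, with 14 to 19 higher and 5 or 6 lower. Direction turned only in genes that were not called: with upper quartile scaling POLH was at -0.006 and CHEK1 at -0.002, and over the left-out libraries the log2 fold change ran from -0.067 to 0.015 for PHLDA3, from -0.064 to 0.013 for PPM1D, from -0.015 to 0.003 for FBXO22 and from -0.047 to 0.039 for CHEK2. Scaling by median of ratios or upper quartile moved the median of all genes by under 0.1, to -0.015 and -0.024. Deviations of samples that share a replicate number had correlations of -0.027, -0.0046 and 0.090. DMSO replicate 2 and PD replicate 1, which share no number, had 0.085. No pairing of dishes by number was seen, but 3 dishes a group cannot exclude it. With the replicate block 25 members were called and 518 genes were DEGs. With 3 dishes a group from 1 experiment, small changes such as that of PERP were at the limit of what could be called.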
